A study of Caenorhabditis elegans with 50 samples.

Results

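Translation initiation and elongation factors were followed as messenger RNA in whole Caenorhabditis elegans, in 50 libraries of 10 strains with 5 libraries each. Members were the entries of the count table that name a single gene of the classes eif, eef, ife, ifg, iff or iftb, and 15 genes met this rule among 33458 entries. One of the 15, eef-1A.1, was listed at 0 in all 35 libraries of the daf-2 strains and wild type, so it was not estimated there and 14 members could be compared in those strains. Another 13 entries name a gene of these classes together with neighbouring genes (among them ifg-1, iftb-1, eif-3.C and ife-2), and they are not members.

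The animals were harvested on day 1 of adulthood. One family of strains was kept at 15 °C for 72 hours and then at 20 °C. It holds wild type (WT), the single mutants daf-2(e1368) and daf-2(e1370), and for each of these a double mutant with daf-16(mg54) and another with daf-16(mu86); daf-16(mg54);daf-2(e1370) is one of these doubles. The daf-2(e1370) eggs were laid 6 hours ahead of the control strains to allow for slow growth, and the labels name no such lead for its doubles. The other family, glp-1(e2141) and its doubles with daf-16(mg54) and with daf-16(mu86), was raised at 25 °C for 48 hours, a temperature at which these animals make no germline. The insulin-like receptor of the worm is the product of daf-2, glp-1 encodes a Notch receptor of germline stem cells, and daf-16 the FOXO transcription factor that is held back by insulin-like signalling. The allele mg54 is a nonsense allele and mu86 a deletion. The comparisons ask what daf-16 contributes to each long-lived single mutant, so the daf-16 effect given here is a log2 difference, with the average of both doubles taken from the single mutant.

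Initiation begins when eIF4E proteins bind the mRNA cap and the small ribosomal subunit, carrying eIF1, eIF1A and the many-subunit complex eIF3, scans for the start codon. In elongation, eEF1A delivers aminoacyl-tRNA, the eEF1B complex recharges eEF1A with GTP, eEF2 moves the ribosome along and eIF5A helps peptide bonds form. Lowering the supply of several of these factors is known to extend the life of C. elegans, and germ cells, which make large amounts of protein, use their own forms of some factors, among them the eIF5A form iff-1.

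In units of 1e6 fragments, library totals were 13.82 to 23.81 in the glp-1 family and 19.89 to 34.25 in the daf-2 family, except for a shallow library, replicate 2 of daf-2(e1370), at 2.37. daf-16 mRNA stood at 94.4 to 114 CPM (counts scaled to library size, with TMM factors) in the libraries of the mg54 doubles of daf-2, against 208 to 222 in WT and 179 to 270 in daf-2(e1370). The mu86 doubles held 148 to 206 CPM with daf-2(e1370) and 175 to 233 CPM with daf-2(e1368). In the glp-1 family daf-16 mRNA was at 119 to 230 CPM with mg54, 142 to 253 in the single mutant and 377 to 504 with mu86. The neighbouring entry H36N01.2,H36N01.3,R13H8.4, picked with its values known, held 92.7 to 341 CPM in the 15 mu86 libraries and 0.0627 to 0.834 CPM in 34 of the other libraries. The remaining library, daf-2(e1370) replicate 2, held 18.5 CPM there, from 41 fragments. Whether that library also carries reads of other libraries was not tested, and every level given for it is uncertain to that extent. Sperm markers, summed over 41 entries, were low in replicates 0 and 1 of daf-16(mg54);daf-2(e1370) (232 and 77.1 CPM) and of daf-16(mu86);daf-2(e1370) (501 and 326 CPM) against 1430 to 2130 CPM in the other libraries of these doubles. Body wall muscle markers, summed over 10 entries, were highest of the daf-2 family in daf-2(e1370) replicate 2, at 6710 CPM, and lowest in replicates 0 and 1 of the same doubles, at 1900 to 2710 CPM. These 5 libraries are therefore kept in and left out in turn for the daf-16 effect of the members in daf-2(e1370).

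In the stronger receptor mutant, of the 14 members 6 were lower in daf-2(e1370) than in its doubles and 1 was higher, at a Benjamini-Hochberg adjusted p under 0.05 in edgeR's quasi-likelihood test, where 27.6% of the 11774 entries tested were called (14.3% higher and 13.3% lower). The 6 lower members were the start-site factors eif-1 and eif-1.A, the eIF3 subunits eif-3.H and eif-3.K, the eIF5A form iff-1, and eef-1B.1, a subunit of the eEF1B exchange factor. The higher one was eef-1A.2, a gene for eEF1A. In sign, 12 members were lower and 2 higher, and their median difference was −0.22 against 0.02 over all entries tested. No test was made of the members as a group. In the same comparison the oogenic germline markers had a median of −0.19, with 2 of 18 lower and 0 higher, and their summed level was 14600 to 18300 CPM in daf-2(e1370) and 13600 to 21500 CPM in the doubles. Body wall muscle markers had a median of 0.35, with 1 of 9 higher and 1 lower, and sperm markers 0.36, with 0 of 37 called. In whole animals, fewer cells of a type and less RNA per cell cannot be told apart.

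The eIF5A form iff-1 (chromosome III, 9745822 to 9747068 on ce10) had the largest fall. Its level was 834, 916, 554, 948 and 1114 CPM in daf-2(e1370) replicates 0 to 4, from 1007 to 1378 CPM in the mg54 double and from 1059 to 1458 CPM in the mu86 double. Of the 5 single mutant libraries, 4 lay below every library of both doubles and the fifth lay among them. The difference was −0.52 ± 0.13 (SE, adjusted p = 0.00203), a level 0.695 times that of the doubles.

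eIF3 is the largest initiation factor and holds the small subunit, the other factors and the mRNA together. Its subunit eif-3.H (chromosome I, 4444712 to 4448484), shown in full because of its low adjusted p and so chosen after its values were seen, read 163, 177, 145, 165 and 166 CPM in daf-2(e1370). The mg54 double read 207, 206, 184, 180.3 and 180.1 CPM, and the mu86 double 214, 207, 187, 184 and 177 CPM. The highest daf-2(e1370) library reached 176.7 CPM and the lowest double 176.6 CPM, so the groups touched at 1 library and were otherwise apart. The difference was small and precise, at −0.24 ± 0.05 (adjusted p = 0.00057). eif-3.K (chromosome V, 12953985 to 12961468) stood at 74.6 to 131 CPM in daf-2(e1370) against 131 to 164 CPM in the doubles, a difference of −0.36 ± 0.08 (adjusted p = 0.00144). The other single-gene eIF3 subunits did not pass, with −0.17 ± 0.06 for eif-3.D (adjusted p = 0.0514) and −0.07 ± 0.07 for eif-3.B (adjusted p = 0.453).

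eif-1, which guards the choice of start codon, stood at 114 to 226 CPM in daf-2(e1370) and 207 to 252 CPM in the doubles. The difference was −0.30 ± 0.08 (adjusted p = 0.00627). eif-1.A (chromosome IV, 4810885 to 4811672), the eIF1A gene that works with it on the small subunit, stood at 104.5 to 302 CPM and at 276 to 352 CPM (−0.39 ± 0.13, adjusted p = 0.0217). For both genes 4 of 5 single mutant libraries lay below every double, and in both the lowest by a wide margin was the shallow replicate 2, which held 252 fragments of eif-1 and 231 of eif-1.A. The eIF4E forms were not called. ife-3 read 159, 171, 143, 182 and 215 CPM in daf-2(e1370) and 155 to 256 CPM in the doubles, and 1 single mutant library lay below every double (−0.30 ± 0.13, adjusted p = 0.0809). ife-4 read 9.21, 9.09, 4.97, 8.91 and 7.04 CPM against 8.24 to 10.7 CPM (−0.20 ± 0.11, adjusted p = 0.167).

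Among the elongation factors, eef-1A.2 (chromosome X, 7823586 to 7825724) read 309, 342, 657, 603 and 468 CPM in daf-2(e1370). It read 225, 226, 359, 378 and 356 CPM in the mg54 double and 244, 221, 387, 426 and 365 CPM in the mu86 double. Only replicates 2, 3 and 4 of daf-2(e1370) lay above every double, while replicates 0 and 1 lay within their range, and replicates 0 and 1 were also the lowest within each double. The difference was 0.57 ± 0.20 (adjusted p = 0.0269), or 1.49-fold. eEF1A has another, near-identical gene, eef-1A.1, which was listed at 0 in these libraries, so how reads of the pair were shared out is uncertain. eef-1B.1 (chromosome III, 7972276 to 7976943) stood at 632 to 1061 CPM against 877 to 1166 CPM, a difference of −0.26 ± 0.10 (adjusted p = 0.0428). eef-1G, the gamma subunit of the same complex, and eef-2 were not called (−0.07 ± 0.07 and −0.18 ± 0.10, adjusted p = 0.443 and 0.182), nor was iff-2, the other eIF5A gene (0.12 ± 0.18, adjusted p = 0.638). iff-2 read 117, 128.5, 215, 200.5 and 169 CPM in daf-2(e1370). It read 97.6, 93.5, 175, 183 and 169 CPM in the mg54 double and 111, 106, 195, 210 and 182 CPM in the mu86 double. Replicates 0 and 1 were the lowest in each of these strains.

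**Figure D1:**
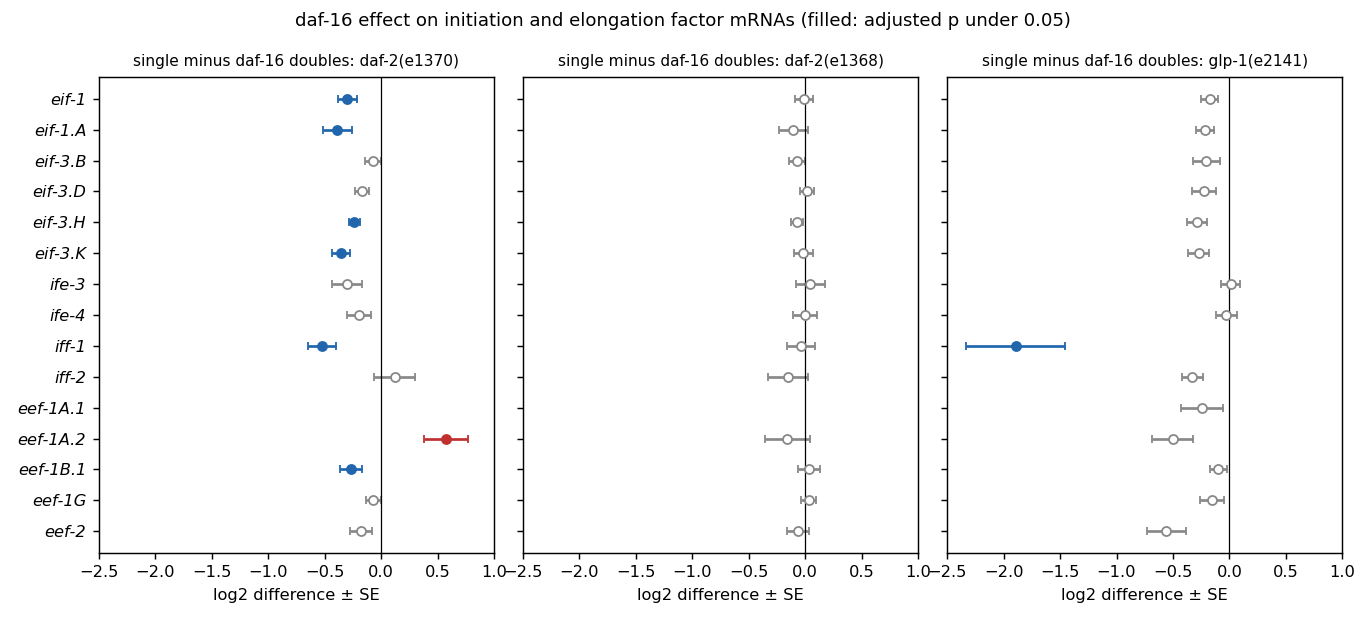
The log2 difference of each member, single mutant less the average of both doubles, is plotted with its standard error for each of the 3 backgrounds. Filled points passed the test: 7 of 14 in daf-2(e1370), 0 of 14 in daf-2(e1368) and 1 of 15 in glp-1(e2141).

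**Figure D2:**
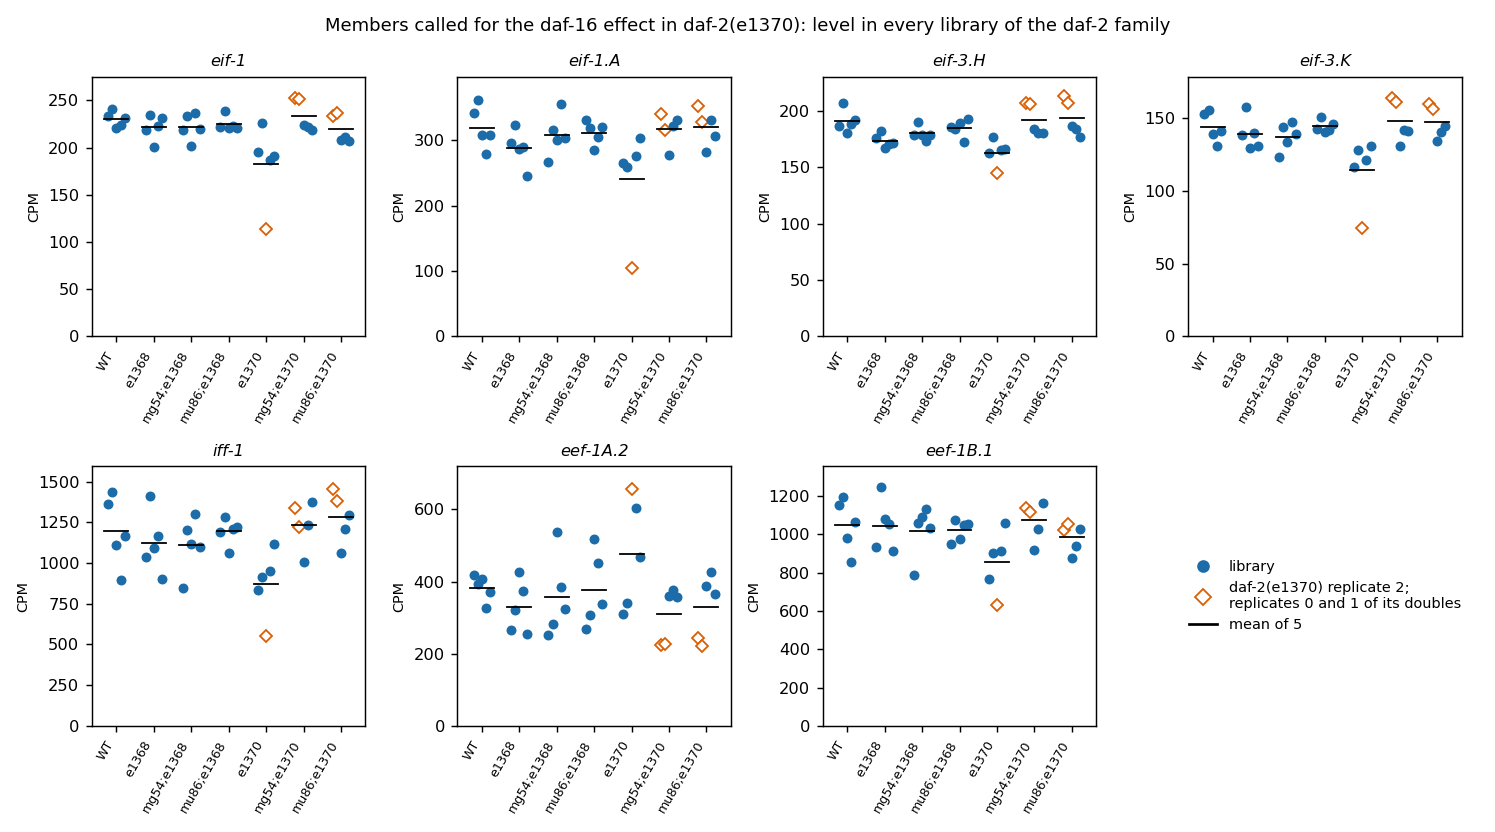
The level in CPM of the 7 members called in daf-2(e1370) is shown for every library of the 7 strains of the daf-2 family, with the mean of 5 libraries as a bar. Open diamonds mark daf-2(e1370) replicate 2, lowest of its strain for the 6 lower members and highest for eef-1A.2, and replicates 0 and 1 of both its doubles.

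These calls leaned on the libraries that stand apart. Without daf-2(e1370) replicate 2, 4 members passed (eif-1, eif-3.H, eif-3.K and iff-1) and 24.8% of all entries did. The same 4 passed without replicates 0 and 1 of both doubles, where 27.4% of entries did. Without all 5 of these libraries, a setting added after seeing the data, 0 of 14 members passed while 26.7% of all entries still did. The differences then kept their signs at smaller sizes: −0.32 for iff-1 (adjusted p = 0.0699), −0.15 for eif-3.K (0.0655), −0.11 for eif-3.H (0.0671), −0.10 for eif-1 (0.209), −0.15 for eif-1.A (0.185), −0.11 for eef-1B.1 (0.483) and 0.20 for eef-1A.2 (0.506). The settings without replicates 0 and 1 of both doubles kept replicates 0 and 1 of daf-2(e1370). Replicate numbers were thus no longer matched between the strains compared. Sperm marker sums in those single mutant replicates were 1020 and 840 CPM, against 1350 to 2260 CPM in the rest of the strain. With all other libraries in, the call of eef-1A.2 also ended without daf-2(e1370) replicate 3 (adjusted p = 0.111). It ended with the mg54 doubles alone (0.0514), as did that of eif-1.A (0.0567), where 22.3% of all entries passed. With the mu86 doubles alone eef-1A.2 (0.105), eif-1 (0.0514) and eef-1B.1 (0.223) did not pass, where 21.5% did. With only the compared strains in the fit eef-1A.2 (0.068), eif-1 (0.116), eif-1.A (0.167), eif-3.K (0.0524) and eef-1B.1 (0.134) did not, where 16.8% did. The call of eef-1B.1 ended in 10 of the 15 fits that left out 1 library (adjusted p = 0.0509 to 0.223). These were the fits without daf-2(e1370) replicate 0, 2 or 3, mg54 replicate 0, 3 or 4, and mu86 replicate 0, 1, 3 or 4. The part that depth or the germline, sperm and muscle markers play in these differences was not tested.

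**Figure D3:**
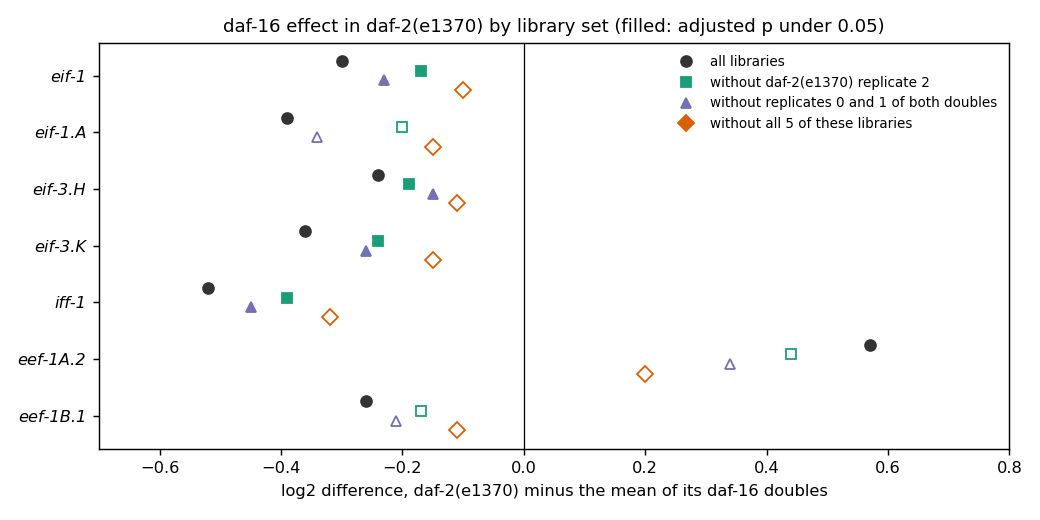
For the 7 members called in daf-2(e1370), the log2 difference is plotted with all libraries, without daf-2(e1370) replicate 2, without replicates 0 and 1 of both doubles, and without all 5 of these libraries. Filled points passed the test; every member moved toward 0 as libraries were left out, and with all 5 out none passed.

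The same strain was compared with WT, which shares the daf-2(e1370) libraries with the comparison above, so the values are set side by side and are not a further set of evidence. Of the 14 members, 4 were lower in daf-2(e1370) and 0 higher, where 18.2% of all entries were called (9.84% higher and 8.4% lower). They were eif-3.H (−0.22 ± 0.06, adjusted p = 0.00536), eif-1 (−0.32 ± 0.09, adjusted p = 0.014), eif-3.K (−0.32 ± 0.09, adjusted p = 0.0149) and iff-1 (−0.45 ± 0.14, adjusted p = 0.0252). For eif-3.H, WT read 187, 207, 180.5, 188 and 192 CPM, and all 5 WT libraries lay above all 5 daf-2(e1370) libraries; it was the only member of the 14 whose groups did not overlap, while 13.4% of all entries did not overlap in this comparison (7.07% higher and 6.34% lower). iff-1 read 1364, 1435, 1110, 898 and 1167 CPM in WT, and 3 of the 5 daf-2(e1370) libraries lay within that range. The median over members was −0.21 and over all entries 0.02, and eef-1A.2, at 0.31 ± 0.23, did not pass (adjusted p = 0.415). The call of iff-1 ended without daf-2(e1370) replicate 2 (adjusted p = 0.0963) and without WT replicate 0 (0.0809) or 1 (0.0947), and that of eif-3.K without WT replicate 0 (0.0535) or 1 (0.0561). That of iff-1 also ended in the fit of all 50 libraries (0.219). With only the compared strains in the fit all 4 calls ended (adjusted p = 0.0508 for eif-3.H, 0.0951 for eif-3.K, 0.0973 for iff-1 and 0.114 for eif-1), while 15.0% of all entries still passed. For the doubles of daf-2(e1370) against WT, 0 of 14 members passed in edgeR, 0 at an unadjusted p under 0.05 and 0 in DESeq2, where 1.3% of entries were called (0.756% higher and 0.544% lower), with differences from −0.33 to 0.09.

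In daf-2(e1368), the weaker receptor allele, no member passed the test for daf-16. edgeR and DESeq2 both called 0 of 14, and 0 had an unadjusted p under 0.05, where 5.01% of entries were called (3% higher and 2.01% lower). Differences ran from −0.16 ± 0.20 (eef-1A.2) to 0.05 ± 0.13 (ife-3), with a median of −0.03 against 0 over all entries. iff-1 read 1038, 1410, 1093, 1168 and 900.2 CPM in the single mutant, 849 to 1304 CPM in its mg54 double and 1063 to 1284 CPM in its mu86 double, so the groups overlapped throughout (−0.04 ± 0.12, adjusted p = 0.91). eif-3.H read 167 to 182 CPM in daf-2(e1368) and 173 to 193 CPM in the doubles, and 3 of 5 single mutant libraries lay below every double (−0.07 ± 0.05, adjusted p = 0.618). Against WT, daf-2(e1368) gave 0 called members in edgeR and DESeq2 and 1 at an unadjusted p under 0.05 (eif-3.H, −0.14 ± 0.06, adjusted p = 0.327), where 2.06% of entries were called (1.24% higher and 0.824% lower). Its doubles gave 0 by edgeR, by DESeq2 and at an unadjusted p, where 0.425% were called (0.178% higher and 0.246% lower).

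That a member passed with e1370 and not with e1368 does not show that the alleles differ, so the difference of the daf-16 effects was tested itself. None of the 14 members passed in edgeR, where 4.71% of entries did (3.22% higher and 1.49% lower). DESeq2 called 1, eif-3.K (adjusted p = 0.0439), where it called 6.9% of all entries. In edgeR, 6 members had an unadjusted p under 0.05. The share of all entries at that unadjusted p was not counted. The largest differences, e1370 minus e1368, were 0.73 ± 0.28 for eef-1A.2 (adjusted p = 0.134), −0.48 ± 0.18 for iff-1 (0.112), −0.35 ± 0.18 for ife-3 (0.25) and −0.34 ± 0.12 for eif-3.K (0.0886). Beside them, oogenic germline markers had a median of −0.31, muscle markers 0.57 and sperm markers 0.78, with none called. Their part was not tested. Leaving out daf-2(e1370) replicate 1 brought 2 members past the threshold, eif-1 (adjusted p = 0.0311) and eif-3.K (0.0436), where 5.9% of all entries passed. With the replicate number as a block 5 members passed, where 31.1% of all entries did: eef-1A.2 (adjusted p = 0.0049), eif-3.K (0.0098), eif-1 (0.0182), iff-1 (0.0213) and eif-3.H (0.0304). Same-numbered libraries of the daf-2 family deviated together in part. The correlation of their deviations was over 0.1 in 72 of 105 pairs, with a median of 0.27 against −0.05 for different-numbered pairs. Of the 35 libraries, 21 were closest to their own number out of 5.

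In animals without a germline, 1 of 15 members passed for daf-16: iff-1 was lower in glp-1(e2141) than in its doubles, where 4.97% of 10399 entries were called (3.4% higher and 1.57% lower). iff-1 was at low levels in this family, with 18 to 355 fragments a library. On the family's own scale it read 1.18, 3.84, 2.49, 2.70 and 2.68 CPM in glp-1(e2141), 7.75, 12.5, 2.44, 9.12 and 12.8 CPM in the mg54 double, and 6.67, 10.2, 19.2, 3.15 and 12.2 CPM in the mu86 double. Of the 10 double libraries, 8 lay above every single mutant library, and mg54 replicate 2 and mu86 replicate 3 lay within their range. The difference was −1.89 ± 0.44 (adjusted p = 0.0195), a level 0.27 times that of the doubles.

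Oogenic germline markers, 18 entries, were read beside this result. Their summed level was 122 to 188 CPM in glp-1(e2141), 141 to 201 with mg54 and 121 to 198 with mu86, and none of the 18 was at 0 over a whole strain. Of the 4 that were abundant enough to test, 0 passed, and their median was −0.10. The entries car-1, cgh-1 and glh-1 held most of the sum, while pgl-1, a germ granule gene, held 5 fragments over the 5 glp-1(e2141) libraries, 73 with mg54 and 11 with mu86, and the yolk receptor gene rme-2 held 4, 80 and 3. Their part in the iff-1 difference was not tested. The call of iff-1 ended without glp-1(e2141) replicate 0 (adjusted p = 0.0634), 2 (0.053) or 4 (0.0554), under the replicate block (0.0519) and with the mg54 doubles alone (0.0574).

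Of the other 14 members of the glp-1 family, 13 had a negative sign and none passed, and the median over all 15 was −0.22 against −0.01 over all entries. Unadjusted p was under 0.05 for 8 of the 15, and the share of all entries under it was not counted. The elongation factors had the widest spread. eef-2 (chromosome I, 9159760 to 9166839), the translocase, and eef-1A.1 are given in full although not called, a choice made after their values were seen. eef-2 read 1832, 2904, 2958, 2336 and 2297 CPM in glp-1(e2141), 2384 to 4212 CPM with mg54 and 2194 to 4603 CPM with mu86 (−0.56 ± 0.18, adjusted p = 0.0845). eef-1A.1, estimated only in this family, read 2086, 3561, 4163, 3179 and 2819 CPM in the single mutant and 2182 to 4684 CPM in the doubles, a difference of −0.24 ± 0.19 (adjusted p = 0.568). eef-1A.2 read 826 to 1185 CPM in the single mutant and 755 to 1788 CPM in the doubles (−0.50 ± 0.18, adjusted p = 0.136). In each of these 3 genes the lowest of the 10 double libraries was mu86 replicate 3, whose muscle marker sum (4080 CPM) and intestine marker sum (5550 CPM) were also the lowest of the family. Without it, eef-2 (adjusted p = 0.012), eef-1A.2 (0.0183) and iff-2 (0.0362) passed beside iff-1, so that 4 members were called, and 841 of all entries (8.0%) were called in place of 517. DESeq2 also called 4, iff-1, eef-2, eif-3.H and iff-2, where it called 8.4% of all entries.

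iff-2, the somatic eIF5A form, read 451, 454, 549.5, 549.1 and 421 CPM in glp-1(e2141), 551 to 699 CPM with mg54 and 547 to 687 CPM with mu86. Of the 5 single mutant libraries, 3 lay below every double, and the difference was −0.33 ± 0.09 (adjusted p = 0.0541). The uncalled initiation factors had differences from −0.29 to 0.01 in this family. The widest were −0.29 ± 0.08 for eif-3.H (adjusted p = 0.0658) and −0.27 ± 0.09 for eif-3.K (adjusted p = 0.113). The cap-binding forms showed the smallest differences, with 0.01 ± 0.08 for ife-3 and −0.03 ± 0.09 for ife-4, and their single mutant libraries lay within the range of the doubles.

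The daf-16 effects of daf-2(e1370) and glp-1(e2141) were compared in a fit of all 50 libraries, and 2 of 14 members differed, both higher, where 7.25% of 12326 entries did (4.39% higher and 2.86% lower). eef-1A.2 was one, with a difference of 1.07 ± 0.26 (adjusted p = 0.00459): it was higher than in the doubles in daf-2(e1370) and had a negative sign in glp-1(e2141). The other was iff-1, with 1.34 ± 0.37 (adjusted p = 0.0157), lower than in the doubles in both backgrounds and by more in glp-1(e2141). The call of iff-1 ended with the mg54 doubles alone (adjusted p = 0.0707) or with only the compared strains in the fit (0.0761), and both calls held in all 30 fits that left out 1 library. This contrast was not fitted without all 5 libraries that stand apart. Without them the daf-16 effect of eef-1A.2 in daf-2(e1370) itself was 0.20 (adjusted p = 0.506). How reads of eef-1A.2 and the near-identical eef-1A.1, estimated only in the glp-1 family, were shared out is also uncertain. Over the other 12 members the differences ran from −0.35 to 0.45.

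Set against WT, the glp-1(e2141) strain had 11 of 14 members lower and 3 higher, where 90.5% of entries were called (51.5% higher and 39.1% lower). Genotype, growth temperature and run of sample numbers all differ between these strains and cannot be told apart. The scaling matters here: the median of all entries was 0.67 with TMM scaling and −0.01 with DESeq2 size factors. The members are therefore also given relative to that median. No member changed direction between these scalings.

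iff-1 read 1336, 1427, 1031, 869.9 and 1134 CPM in WT on the 50-library scale, and 1.24, 4.01, 2.61, 3.13 and 2.81 CPM in glp-1(e2141). The strains were far apart, with a difference of −8.71 ± 0.38 (adjusted p = 8.08e-25), or −9.38 relative to the median entry. Its paralogue iff-2 (chromosome II, 8559423 to 8563667) went the other way, from 197, 184, 191, 167 and 188 CPM in WT to 475, 473.5, 575, 637 and 442 CPM. That rise was 1.49 ± 0.17 (adjusted p = 1.27e-10), or 0.82 relative to the median, and the groups did not overlap. On the TMM scale none of the 14 members overlapped in this comparison, nor did 81% of all entries (44.1% higher and 36.8% lower). Overlap was not read with DESeq2 size factors. How reads that match both eIF5A genes were assigned is not stated in the labels.

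The eIF4E forms also went opposite ways. ife-3 (chromosome V, 5669 to 13375) read 226, 244, 175.5, 138 and 197 CPM in WT and 13.6, 15.4, 15.2, 14.7 and 14.6 CPM in glp-1(e2141), a difference of −3.74 ± 0.17 (adjusted p = 8.19e-25) or −4.41 relative to the median. ife-4 (chromosome X, 1104048 to 1106164), known from neurons and muscle, read 8.84, 9.90, 8.16, 8.07 and 8.57 CPM in WT and 18.4, 15.3, 14.7, 19.1 and 17.1 CPM in glp-1(e2141). It was higher by 0.96 ± 0.12 (adjusted p = 1.12e-09), of which 0.29 remained relative to the median.

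**Figure D4:**
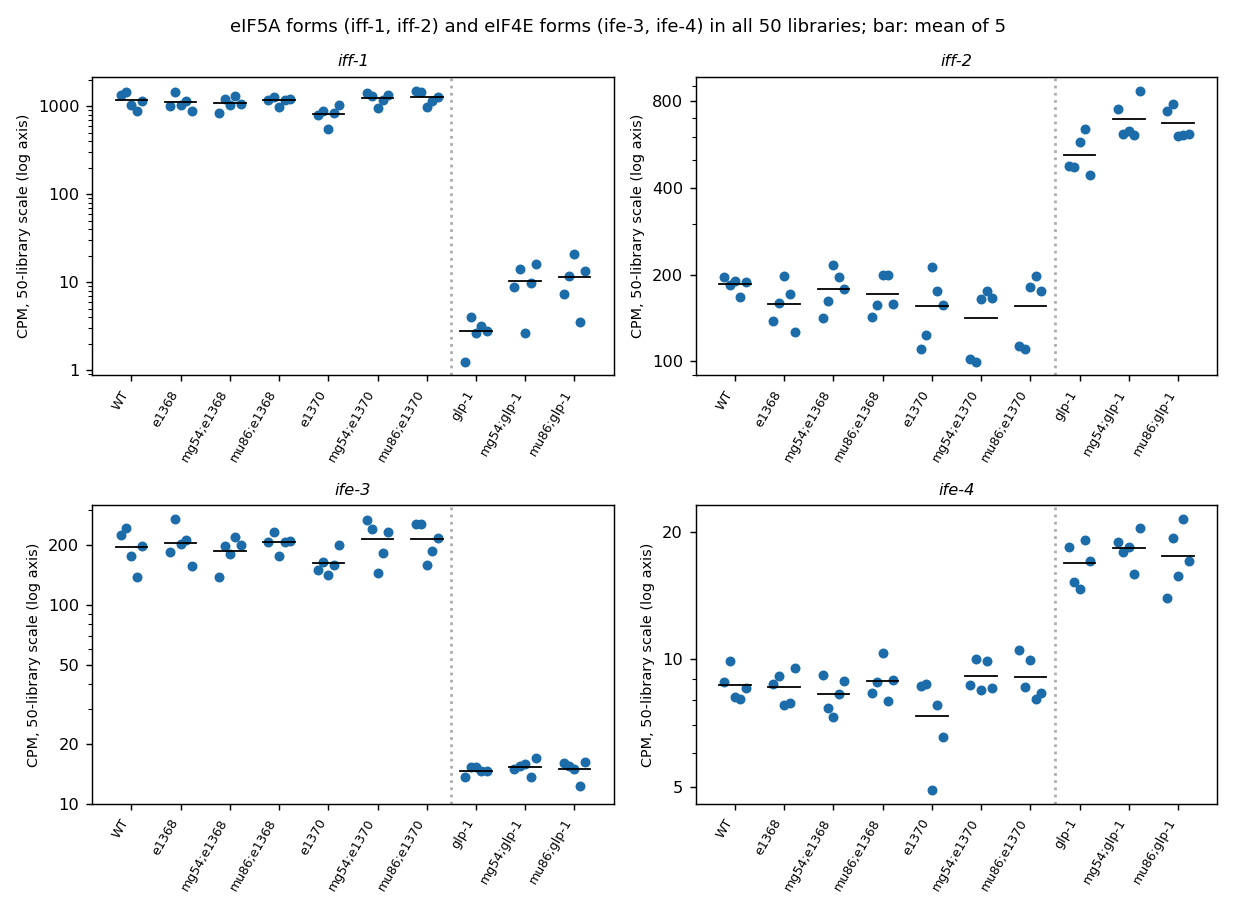
Levels of the eIF5A genes iff-1 and iff-2 and the eIF4E genes ife-3 and ife-4 are plotted for all 50 libraries on a log axis in CPM, with the mean of each strain as a bar and a dotted line before the glp-1 strains. On this TMM scale, iff-1 and ife-3 lie lower in all 15 libraries of the glp-1 family than in any of the other 35, and iff-2 and ife-4 lie higher.

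The core initiation factors fell together in glp-1(e2141) against WT. The log2 difference was −1.59 ± 0.11 for eif-3.B, −1.32 ± 0.11 for eif-3.D, −1.22 ± 0.11 for eif-3.K, −1.19 ± 0.11 for eif-1 and −1.09 ± 0.14 for eif-1.A. Relative to the median these 5 and eif-3.H stood at −1.76 to −2.26. Among elongation factors the differences were −1.13 ± 0.16 for eef-2, −0.88 ± 0.11 for eef-1G and −0.69 ± 0.11 for eef-1B.1, while eef-1A.2 rose by 1.47 ± 0.21 (adjusted p = 2.35e-08), or 0.80 relative to the median. The near-identical eef-1A.1 was listed at 0 in WT and held 31870 to 88513 fragments a library in the glp-1 family. Whether reads of the pair were shared out alike in these strains is not known, so the rise of eef-1A.2 is uncertain. The largest adjusted p among the 14 was 3.55e-07 with TMM scaling. With DESeq2 size factors in edgeR it was 0.0147, for ife-4, whose difference was then 0.33. Beside these values, all 18 oogenic markers were lower (their sums were 121 to 201 CPM in the glp-1 family and 13300 to 23600 in the daf-2 family), 35 of 37 sperm markers were lower and 1 higher, and 7 of 7 intestine markers were higher, with a median of 1.65. Of 9 body wall muscle markers, 7 were higher and 1 lower, with a median of 1.17. The part of these markers in the members' differences was not tested.

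**Figure D5:**
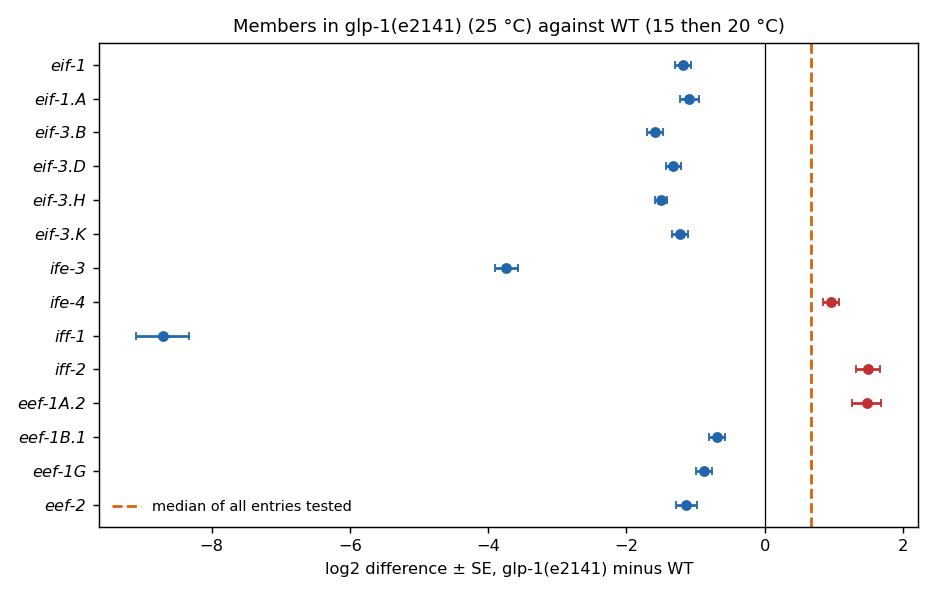
The log2 difference of each member between glp-1(e2141) and WT is plotted with its standard error, and the dashed line marks the median of all entries tested, 0.67. iff-2, eef-1A.2 and ife-4 lie to the right of that line and the other 11 members to the left of 0.

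Other translation genes outside these classes were read from a list of 41, of which 16 had a single-gene entry that could be tested in the daf-2 family. In daf-2(e1370) against its doubles 6 were lower and 2 higher, with a median of −0.14. Over all entries, 13.3% were lower and 14.3% higher. The lower ones were the eIF5B gene iffb-1 (−0.34), the eIF4A gene inf-1 (−0.36), the release factor gene erfa-3 (−0.37), abcf-1 (−0.31), and the mitochondrial elongation factor genes tufm-1 (−0.22) and tsfm-1 (−0.17). The higher ones were pab-2, which encodes a poly(A)-binding protein (0.62), and larp-1, a La-related protein gene (0.47). Against WT, 6 of the 16 were lower and 0 higher, where 8.4% of all entries were lower and 9.84% higher. In daf-2(e1368) edgeR called 0 of 16 for daf-16, where 5.01% of all entries were called. In glp-1(e2141) it called 0 of 17, where 4.97% were. The difference between the e1370 and e1368 effects passed for 2 of 16, where 4.71% of all entries passed. They were iffb-1 (−0.27 ± 0.08, adjusted p = 0.0324) and erfa-3 (−0.34 ± 0.10, adjusted p = 0.0366). In glp-1(e2141) against WT, 13 were lower and 2 higher, where 39.1% of all entries were lower and 51.5% higher. These genes were not read in the fits that left libraries out, so whether their calls hold there is not known.

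Aminoacyl-tRNA synthetases, which charge tRNAs with amino acids, numbered 14 among the entries that name a single gene, with 11 tested in the daf-2 family. For daf-16 in daf-2(e1370), 6 were lower and 0 higher: sars-1 (−0.40), wars-1 (−0.35), tars-1 (−0.35), qars-1 (−0.31), kars-1 (−0.30) and fars-2 (−0.20). Over all entries, 13.3% were lower and 14.3% higher in this comparison. The difference between alleles passed for sars-1 (−0.29 ± 0.07, adjusted p = 0.00878) and wars-1 (−0.29 ± 0.08, adjusted p = 0.0361), where 4.71% of all entries passed. In daf-2(e1368) 0 of 11 were called, where 5.01% of all entries were. In glp-1(e2141), 2 of 13 were lower than in the doubles, wars-1 (−0.52 ± 0.13, adjusted p = 0.0324) and sars-1 (−0.38 ± 0.10, adjusted p = 0.0353). Over all entries, 1.57% were lower and 3.4% higher there. The synthetases were not read in the fits that left libraries out.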

How the data were processed

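Per the labels, polyadenylated RNA of whole animals was sequenced as paired ends. The authors deposited estimated counts per gene entry; per the submitters' processing notes the build was ce10 and the tools were Bowtie2 2.1.0, TopHat2 2.0.9, Cuffdiff 2.1.1, Cufflinks, cutadapt and FastQC 0.10.1. Their roles, the annotation and the strand setting are not stated there. Values were rounded (72.2% of those above 0 were already within 0.02 of whole). Of 34207 rows, 314 name no gene (0.187% to 0.48% of fragments) and were left out, and 849 rows at 414 name and locus pairs were summed. Loci at 0 in a whole strain while another strain averaged at least 1000 fragments were dropped as not estimated: 10 in the daf-2 family and 1 in the glp-1 family. An entry can carry the span of its whole bundle of overlapping models, as eif-1 and eef-1A.1 do, and overlapping or antisense genes cannot be told apart.

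Tests used edgeR 4.0.16 in R 4.3.3 (TMM, filterByExpr, robust quasi-likelihood fit on strain, Benjamini-Hochberg adjusted p under 0.05 over all entries), with each family fitted alone and all 50 libraries for comparisons across families. DESeq2 1.42.0 was an alternative. Every adjusted p is from edgeR unless DESeq2 is named, errors beside log2 differences are SE, and n is 5 per strain. Scripts were tested on simulated counts. Replicates differed by more than sampling noise in all 100 pairs (chi-square per degree of freedom 7.21 to 177). Members called were named, and libraries were printed in full for the called member of largest difference in each comparison. Those of ife-3, ife-4, iff-1 and iff-2 were printed in full for some strains, and as ranges or not at all for others. The members, lists and tests were chosen with earlier results of these data known.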

Additional observations from a re-analysis of the deposited data

Results flagged for a closer look

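In 7 of 143 groups of 5 libraries, 1 library lay far from the other 4 by Dixon's criterion, which chance alone would give in about 1 group in 20. Both eif-1.A (104.5 CPM) and eif-3.K (74.6 CPM) were far below the rest of their strain in daf-2(e1370) replicate 2, the shallow library. In daf-16(mu86);glp-1(e2141) replicate 3, eef-1B.1 (498.5 CPM) and eef-1G (959 CPM) were far below the other libraries. The remaining such libraries were daf-16(mg54);daf-2(e1368) replicate 0 for eef-2 (4398 CPM, low), daf-16(mu86);daf-2(e1368) replicate 1 for eif-1 (239.1 CPM, high) and daf-16(mu86);daf-2(e1368) replicate 2 for ife-4 (11.18 CPM, high).

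The daf-16 effect differed between daf-2(e1370) and glp-1(e2141), by the test of the difference itself, for eef-1A.2 (1.07) and iff-1 (1.34).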

How the results depend on the processing

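No called member changed direction under any alternative run. For the daf-16 effect in daf-2(e1370), 7 members in the main result became 4 with the mu86 doubles alone, 4 without replicates 0 and 1 of both doubles, 2 with only the compared strains in the fit (1900 of all entries called against 3248), 0 without these 4 libraries and daf-2(e1370) replicate 2, and 4 to 9 with 1 library left out. In glp-1(e2141), 1 became 4 with DESeq2, 4 with all 50 libraries in 1 fit, 0 with the mg54 doubles alone, and 0 to 4 with 1 library left out. There DESeq2 called 877 of all entries, the 50-library fit 860 and the mg54 doubles 316, against 517. For daf-2(e1370) minus WT, 4 became 0 with only the compared strains and 2 to 6 with 1 library left out. The difference between the e1370 and e1368 effects went from 0 to 1 with DESeq2 (811 of all entries against 555) and to 0 to 2 with 1 library left out. That between daf-2(e1370) and glp-1(e2141) went from 2 to 1 with the mg54 doubles alone (511 of all entries against 894) or only the compared strains (564). Among all entries, the latter difference had 541 higher and 353 lower calls with TMM and 462 and 541 with DESeq2 size factors. The causes were not tested.

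Replicate numbers recur across strains, and same-numbered libraries deviated together in part in the daf-2 family but not in the glp-1 family. Correlations of their deviations exceeded 0.1 in 72 of 105 pairs of the daf-2 family (median 0.27, against −0.05 for different-numbered pairs). In the glp-1 family they did so in 1 of 15 pairs (median −0.13, against 0). In turn, 21 of 35 and 2 of 15 libraries were closest to their own number. With a replicate block, members called went from 7 to 9 for daf-16 in daf-2(e1370), 4 to 7 against WT, 0 to 1 for its doubles minus WT, 0 to 5 for e1370 minus e1368 and 1 to 0 in glp-1(e2141), and all entries called from 3248 to 5658, 2147 to 3345, 153 to 646, 555 to 3667 and 517 to 272.

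All 143 strain means, each on the scale of its own family, stayed within 1 SD with DESeq2 size factors and with unscaled library sizes. Levels on the scale of both families together were not part of this check. Depth limits iff-1 in the glp-1 family, at 18 fragments in its lowest library, and ife-4, at 11 in daf-2(e1370) replicate 2.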

Other observations

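Entries that name a gene of these classes together with its neighbours cannot be credited to 1 gene, and they were tested as they stand. Of 13, 11 could be tested in the daf-2 family. For daf-16 in daf-2(e1370), 6 were lower and 0 higher, with a median of −0.21: those holding the eIF3 subunit genes eif-3.C (−0.28 ± 0.05), eif-3.E (−0.24 ± 0.06), eif-3.F (−0.21 ± 0.05) and eif-3.G (−0.15 ± 0.05), the eIF2 beta gene iftb-1 (−0.33 ± 0.08) and eif-6, a factor of the large ribosomal subunit (−0.28 ± 0.07). Over all entries, 13.3% were lower and 14.3% higher. The shared entries were not read in the fits that left libraries out, so whether their calls hold there is not known. In daf-2(e1368) 0 of 11 were called, where 5.01% of all entries were. In glp-1(e2141), 2 of 12 were lower than in the doubles, those holding eif-3.C (−0.46 ± 0.12, adjusted p = 0.0426) and eif-6 (−0.64 ± 0.17, adjusted p = 0.0379). There 1.57% of all entries were lower and 3.4% higher. Against WT, 10 of 11 were lower in glp-1(e2141) and 1 higher, the entry that holds ife-2, an eIF4E form known from somatic cells, together with R04A9.3 and ceh-93 (0.95). In that comparison 39.1% of all entries were lower and 51.5% higher.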
